A study of Homo sapiens with 12 samples.

Results

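The genes of the ER membrane protein complex (EMC) were examined in TPC1 cells, a line from a papillary thyroid carcinoma, and in 3 clones with a single working copy of DICER1. The members were taken by name from the deposited table and are EMC10, EMC1, EMC2, EMC3, EMC4, EMC6, EMC7, EMC8, EMC9 and MMGT1, which encodes the subunit also called EMC5. These 10 genes were found among the 58302 in the table, and all 10 were among the 16027 with at least 1 read per 1000000 in at least 3 libraries. EMC10 was chosen by its scaled reads in the clones against TPC1, where it fell furthest, so its difference from TPC1 is given as a description without a test. The 9 other subunits were taken by name and not for their values. Earlier results of these data were known when the members were chosen.

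The 12 RNA-seq libraries are 3 of TPC1 (genotype wt, no treatment) and 3 of each clone, D11, WB1 and TD5 (genotype DICER (+/-)). The clones were made by transient transfection of TPC1 with a CRISPR/Cas9 plasmid against DICER1, and all 4 lines were grown in the same medium. Each clone grew from 1 sorted cell, so the 3 libraries of a clone repeat that clone and do not sample other heterozygous cells, and an effect of the genotype cannot be told apart from other differences of the clone. Nothing in the labels says whether libraries came from separate cultures, so p-values measure the spread between libraries, which may be technical.

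The EMC is an assembly in the membrane of the endoplasmic reticulum that inserts transmembrane segments into the lipid bilayer. It handles tail-anchored proteins and the first segment of many multipass receptors and transporters. EMC3 and EMC6 form the membrane-embedded insertase, EMC2 with EMC8 or its paralog EMC9 forms the cytosolic part, and EMC1, EMC7 and EMC10 contribute most of the part in the lumen. EMC1 is the largest subunit and a scaffold of the complex, whereas EMC7 and EMC10 are peripheral. In the mouse, Emc10 is also known as Mirta22, a gene that is repressed by miRNAs and that rises when miRNA processing is reduced in neurons, and miR-185 is among the miRNAs that act on it. DICER1 cuts precursor hairpins into mature miRNAs.

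The 2 subunit genes whose level differed most between lines were EMC10 and EMC1, and their promoters are shown for that reason. Promoter windows and the miRNA were taken from the RefSeq tables (GRCh38.p14). The windows hold 250 bases before and 50 bases after the RefSeq start of the gene, and 8 of the 10 members had one. The EMC10 window lies at chr19:50476257-50476556 on the plus strand, and capitals mark TGACGTCA, the full cAMP response element, which reads the same on both strands.
EMC10 promoter: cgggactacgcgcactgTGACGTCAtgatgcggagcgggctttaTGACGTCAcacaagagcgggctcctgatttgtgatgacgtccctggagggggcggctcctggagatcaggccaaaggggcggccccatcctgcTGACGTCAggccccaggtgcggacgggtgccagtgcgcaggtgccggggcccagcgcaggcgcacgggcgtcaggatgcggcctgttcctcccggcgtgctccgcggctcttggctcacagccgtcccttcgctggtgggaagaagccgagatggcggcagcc
The motif starts at positions -233, -206 and -113 from the RefSeq start at 50476507, which lies 107 bases inside the gene as the annotation used below bounds it. It was picked after the sequence had been read. At least 1 copy occurred in 649 of 35116 promoter windows (1.85%), and only 1 window, that of EMC10, held 3 or more. None of the 7 other members in the table held a copy. The EMC10 window held 29 CpG dinucleotides, against 14 to 43 in the windows of the other members. The EMC1 window lies at chr1:19251475-19251774 on the minus strand, and capitals mark the 220 bases that it shares with the window of MRTO4, a ribosome assembly factor transcribed in the opposite direction from a start 253 bases away in the gene annotation of the reference.
EMC1 promoter: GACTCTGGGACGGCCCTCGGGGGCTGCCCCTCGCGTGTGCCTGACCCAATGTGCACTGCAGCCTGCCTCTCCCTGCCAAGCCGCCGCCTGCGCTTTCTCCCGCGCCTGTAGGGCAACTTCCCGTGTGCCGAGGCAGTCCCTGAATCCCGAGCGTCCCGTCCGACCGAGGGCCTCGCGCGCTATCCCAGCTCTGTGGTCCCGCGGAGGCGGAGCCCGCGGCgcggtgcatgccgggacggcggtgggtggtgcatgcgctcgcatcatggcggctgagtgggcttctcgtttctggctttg
The miRNA known to act on Emc10 in the mouse is given with its seed, bases 2 to 8, in capitals.
hsa-miR-185-5p: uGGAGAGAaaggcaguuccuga
The letters that pair with this seed, TCTCTCC, occurred once in the 3′ UTR of the main EMC10 transcript and once in that of ENST00000376918, and did not occur in that of ENST00000598585. These matches are letters in a sequence and do not show that a site is used.

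The deposited values are reads per gene scaled by the authors to 20000000 per library and rounded up, here called scaled reads. Each library was estimated to hold 12700000 to 21020000 actual reads, so that a floor of 3 reads stands at 2.85 to 4.72 scaled reads. Intervals and floors cover counting error only. DICER1 stood at 1197 ± 142 scaled reads in TPC1, 1040 ± 58.7 in D11, 878 ± 62.0 in WB1 and 693 ± 101 in TD5 (mean ± SD, n = 3), and its difference from TPC1 was -0.19 (adjusted p = 0.138), -0.43 (0.00404) and -0.77 (9.02e-05) on the log2 scale. By these limma values DICER1 was lowest in TD5, and EMC10 was lowest in D11. The values are of RNA and do not measure DICER1 protein, which the paper reported as reduced in the clones by Western blot. A link of EMC10 to the dose of DICER1 was not tested. Of the thyroid markers, PAX8 reached 7248 to 9879 scaled reads in the 12 libraries and FOXE1 93 to 316, TG stayed at 11 to 27, and TSHR, SLC5A5 and NKX2-1 were at 0. Of the epithelial markers, KRT8 stood at 10280 to 16274 and KRT18 at 5237 to 7775, while KRT19, EPCAM and CDH1 did not exceed 6. CD3E was at 0, PTPRC, CD14 and PECAM1 did not exceed 7 and COL1A1 stood at 48 to 97.

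EMC10 (ENSG00000161671, chr19:50476400-50490871, plus strand) counted 365, 392 and 421 scaled reads in TPC1. D11 showed 2, 2 and 5. WB1 retained 65, 52 and 57, and TD5 showed 12, 8 and 12. The 4 lines did not overlap, and every clone library lay far below every TPC1 library. In estimated reads, D11 held 6, TD5 21 and WB1 146, against 1008 in TPC1. Per read sequenced, the level was 0.646% of that in TPC1 in D11 (95% exact binomial interval 0.237 to 1.41%), 2.53% in TD5 (1.56 to 3.88%) and 14.8% in WB1 (12.4 to 17.6%). Loss from part of the cells of a clone and less RNA per cell cannot be told apart in bulk libraries.

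On the scale of log2(value per 1000000 + 1), which understates the change of genes with few reads, EMC10 differed from TPC1 by -4.17 in D11, -2.40 in WB1 and -3.75 in TD5. The depth of the fall in D11 and TD5 depends on the pseudocount, and was -6.35 and -4.98 with a pseudocount of 0.1. These 3 values share the TPC1 libraries. The differences between clones were tested with limma over all tested genes, where a call needs an adjusted p under 0.05 and at least 1.5-fold. The choice of EMC10 rested on its fall in the clones, so the same clone libraries entered it. The p-values of EMC10 between clones are therefore not independent of the choice. EMC10 was higher in WB1 than in D11 by 1.76 ± 0.12 (log2, SE; adjusted p = 3.42e-08) and lower in TD5 than in WB1 (-1.35 ± 0.12, adjusted p = 1.59e-06). Among all tested genes 2.85% were called between WB1 and D11 and 2.33% between TD5 and WB1. TD5 exceeded D11 by 0.41 ± 0.12 (adjusted p = 0.0201), which is under 1.5-fold and not a call. With a pseudocount of 0.1 the difference was 1.38 (adjusted p = 0.000664) and with voom on the estimated reads 1.91 (0.00829), both calls. D11 and TD5 rest on 1 to 9 estimated reads per library, under the filter level, which EMC10 reached only in TPC1 and WB1.

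**Figure D1:**
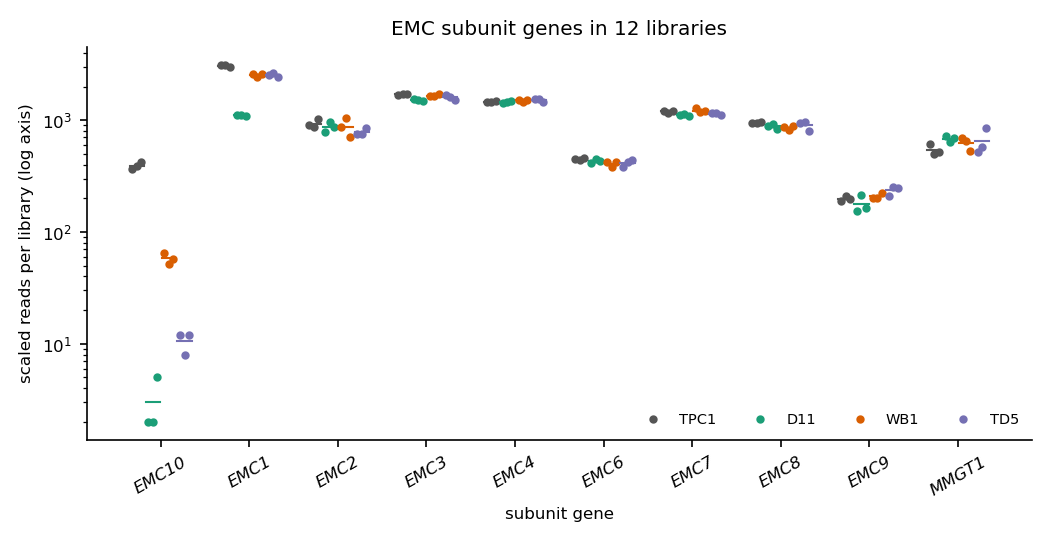
Scaled reads (log axis) of the 10 subunit genes in the 12 libraries, with a point per library, a bar at the mean of each line and a color per line. EMC10 runs from 2 scaled reads in D11 to 421 in TPC1, and EMC1 from 1097 to 1107 in D11 against 2419 to 3125 in the other lines. Within each of the other genes the lines lie close together.

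EMC1 (ENSG00000127463, chr1:19215660-19251552, minus strand) had 3125, 3091 and 2973 scaled reads in TPC1. In D11 it had 1106, 1107 and 1097. WB1 held 2605, 2440 and 2584, and TD5 2520, 2624 and 2419. All 9 clone libraries lay below TPC1, and the D11 libraries lay below all the others. The mean was 3063 ± 79.8 in TPC1 and 1103 ± 5.51 in D11, or 36.0% of TPC1. In WB1 and TD5 it was 83.0% and 82.3% of TPC1. The difference from TPC1 was -1.46 ± 0.06 (adjusted p = 9.07e-12) in D11, a call. In WB1 it was -0.27 ± 0.06 (adjusted p = 0.00220) and in TD5 -0.28 ± 0.06 (0.00321), both under 1.5-fold.

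The clones were then compared with each other. EMC1 was higher than in D11 by 1.19 ± 0.06 in WB1 (adjusted p = 1.46e-10) and by 1.18 ± 0.06 in TD5 (1.46e-10), and both are calls. Between TD5 and WB1 the difference was -0.01, with a 95% interval of -0.13 to 0.10 (adjusted p = 0.902). For EMC10 the log2 difference of TD5 minus WB1 was -1.35, a call, and both genes had their lowest mean in D11. Between TD5 and D11, 3.99% of all tested genes were called.

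Having all 9 clone libraries below all 3 TPC1 libraries was a property of 2 of the 10 members, EMC10 and EMC1, against 6.51% of all tested genes. EMC10 was chosen for this direction and adds nothing to that count.

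The 8 subunits other than EMC10 and EMC1 stayed between 84.1% and 126% of their TPC1 mean in every clone, and 0 of their 24 comparisons with TPC1 were calls. Their log2 differences ran from -0.24 to 0.33, and the 95% intervals from -0.48 to 0.62. Of the 9 subunits other than EMC10, limma called 1 in D11 (EMC1), 0 in WB1 and 0 in TD5. Among all tested genes 4.84%, 4.99% and 2.60% were called in these comparisons. With voom on the estimated reads the counts were also 1, 0 and 0, where 1175, 1270 and 545 of the 16027 tested genes were called. At an unadjusted p under 0.05 the counts were 3 of 9 in D11 (EMC1, EMC3 and MMGT1; 44.6% of all tested genes), 1 in WB1 (EMC1; 42.7%) and 2 in TD5 (EMC1 and EMC2; 27.1%), none of them above the background share. The median difference of the 9 genes was -0.10 in D11, -0.04 in WB1 and -0.07 in TD5, against 0.05, 0.06 and 0.00 for all tested genes.

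The libraries of a clone did not overlap with TPC1 for 5 of the 9 subunits in D11 (50.6% of all tested genes), 3 in WB1 (45.3%) and 5 in TD5 (26.5%). In D11 these were EMC1, EMC3, EMC7, EMC8 and MMGT1. In WB1 they were EMC1, EMC6 and EMC8, and in TD5 EMC1, EMC2, EMC6, EMC7 and EMC9. The shares in D11 and WB1 lie near the background.

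The insertase subunits moved little. EMC3 (chr3:9962682-10011202) had 1670, 1714 and 1731 scaled reads in TPC1 and 1549, 1511 and 1472 in D11. The difference was -0.17 ± 0.06 (adjusted p = 0.0345), under 1.5-fold, and the adjusted p ran from 0.0104 to 0.123 over the alternative settings. In WB1 and TD5 EMC3 differed by -0.04 and -0.09. EMC6 (chr17:3668812-3669668) ranged from 380 to 462 in all 12 libraries, with differences of -0.06, -0.14 and -0.12 in D11, WB1 and TD5. MMGT1 (chrX:135960588-135974029), which packs against the insertase, had 609, 499 and 516 in TPC1 and 715, 642 and 693 in D11. Its difference was 0.33 ± 0.14 in D11 (adjusted p = 0.0778), 0.20 in WB1 and 0.22 in TD5. The TD5 libraries of MMGT1 were spread from 516 to 844.

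Of the cytosolic subunits, EMC2 stood at 932 ± 79.4 scaled reads in TPC1 and 784 ± 61.2 in TD5, a difference of -0.24 ± 0.11 (adjusted p = 0.177). Its WB1 libraries ranged from 709 to 1050. EMC8 (chr16:85771758-85799608) differed from TPC1 by -0.10, -0.14 and -0.07 in D11, WB1 and TD5. Its paralog EMC9 (chr14:24138959-24141591) had 191, 208 and 197 in TPC1 and 210, 255 and 245 in TD5. D11 held 154, 214 and 163, which overlapped with TPC1. EMC9 was higher in TD5 than in D11 by 0.39 ± 0.12 (adjusted p = 0.0217), under 1.5-fold. EMC8 and EMC9 thus pointed to opposite sides of TPC1 in TD5, at -0.07 and 0.23 (adjusted p = 0.601 and 0.216), neither of them past the test.

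EMC4 (chr15:34225013-34230156) was steady, with 1430 to 1548 scaled reads in the 12 libraries. It differed from TPC1 by -0.01, 0.04 and 0.05 in the order D11, WB1 and TD5. Its widest 95% bounds were -0.13 and 0.16. EMC7 (chr15:34084017-34101862), a peripheral subunit like EMC10, ranged from 1087 to 1274 and differed by -0.11, 0.03 and -0.07.

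**Figure D2:**
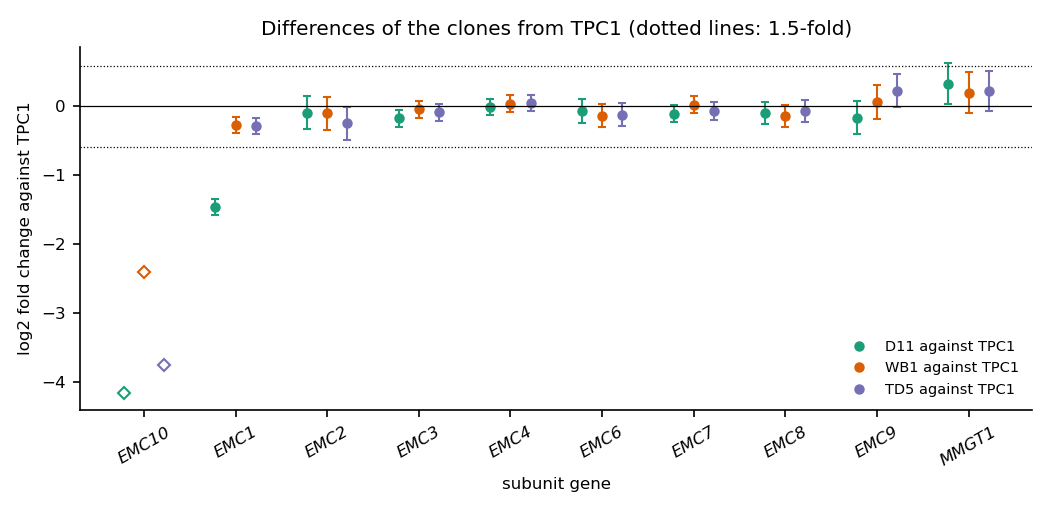
Log2 fold change of each clone against TPC1 for the 10 subunit genes, with 95% intervals from limma as bars, and dotted lines at 1.5-fold. Open diamonds without bars mark EMC10, whose difference from TPC1 was not tested. EMC1 in D11 at -1.46 is the tested value beyond the dotted lines.

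Levels between genes were compared per kilobase of the main annotated transcript in TPC1. EMC4 was highest at 1437 ± 10.8 scaled reads per kilobase, followed by EMC7 at 1119 ± 21.2, EMC3 at 725 ± 13.4, EMC6 at 686 ± 16.5, EMC8 at 482 ± 6.88 and EMC1 at 461 ± 12. EMC2 at 264 ± 22.5 and EMC9 at 237 ± 10.3 overlapped between libraries, and the other neighbours in this order did not. MMGT1 stood at 105 ± 11.5 and EMC10 was lowest at 41.6 ± 2.97. The place of EMC10 depends on the transcript: its main transcript has 9439 bases, and on ENST00000376918, with 2014 bases, the level was 195 ± 13.9. On that transcript EMC10 would stand between EMC9 and MMGT1. Which transcript the cells used was not analysed here. On the main transcript EMC10 had 0.318 ± 0.18 scaled reads per kilobase in D11, 6.14 ± 0.69 in WB1 and 1.13 ± 0.24 in TD5. EMC1 had 166 ± 0.83 in D11.

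Many of these genes share their place with another gene: 9 of the 10 members overlap 17 genes of the table, 13 of them on the opposite strand, and 10 of the 17 were tested. Whether the counting used strand is not given in the sources used here, so reads of a member and of an opposite gene may not have been separated. AC020909.3 (chr19:50480119-50483351), a long noncoding RNA gene on the minus strand inside EMC10, had 113, 137 and 134 scaled reads in TPC1. D11 showed 0, 0 and 2. WB1 retained 22, 19 and 17, and TD5 showed 8, 2 and 4. The order of the lines was that of EMC10. D11 was at or under the floor in every library, and with a floor of 3 reads per library it was at least 33.9-fold lower than TPC1. WB1 stood at 15.0% of TPC1 per read (95% exact binomial interval 10.8 to 20.4%) and TD5 at 3.34% (1.51 to 6.41%), close to the 14.8% and 2.53% of EMC10. The gene passed the filter mainly through TPC1 and no test is given for it. FAM71E1, which overlaps the start of EMC10 on the opposite strand, had at most 3 scaled reads in any library, and AC020909.2 was at 0 in all.

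AL035413.1 (chr1:19210348-19240709), named EMC1-AS1 in the reference, is a long noncoding RNA gene on the strand opposite EMC1. It had 255, 260 and 258 scaled reads in TPC1 and 81, 86 and 93 in D11. In WB1 it had 213, 194 and 231, and in TD5 155, 215 and 164. In D11 the log2 difference was -1.38 (adjusted p = 2.67e-07), a call. In WB1 the difference was -0.26 (adjusted p = 0.0947) and in TD5 -0.50 (0.00865), under 1.5-fold, and without TD5 replicate 2 the latter was -0.63 and a call. Other tested genes that overlap a member include EMC3-AS1, AC022007.1, P2RX5-TAX1BP3, COX4I1, PSME1 and AL136295.2, and none of these was called in any clone.

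The genes around EMC10 were described to see how far its fall extends along the chromosome. Within 1 Mb, 52 genes were tested, of which 4 were called in D11 (3 lower), 2 in WB1 and 2 in TD5 (all lower). Among all tested genes 4.84%, 4.99% and 2.60% were called. The median difference of the 52 genes was -0.15, -0.17 and -0.02, against 0.05, 0.06 and 0.00 for all tested genes. AC020909.3 is in each of these counts although it passed the filter mainly through TPC1, and without it 3 genes were called in D11 (2 lower), 1 in WB1 and 1 in TD5. The 3 nearest tested genes before EMC10 that do not overlap it are AC020909.1, POLD1, the catalytic subunit of DNA polymerase delta, and NR1H2, which encodes the liver X receptor beta. The 3 after it are JOSD2, a deubiquitinase, SHANK1, a synaptic scaffold, and CLEC11A, a growth factor. None of the 6 was called. POLD1 differed by -0.15, -0.32 and 0.06 in D11, WB1 and TD5, and JOSD2 by -0.18, -0.25 and -0.02.

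The called genes other than AC020909.3 lay farther off. CD33, a sialic acid binding receptor of myeloid cells, was lower in D11 (-1.01, adjusted p = 2.52e-05) and in WB1 (-1.64, 1.79e-07) and differed by -0.31 in TD5. MIR4751 was lower in D11 (-0.62). It lies inside ATF5 on the same strand, and ATF5 differed by -0.49 in D11, under 1.5-fold. Whether the reads on MIR4751 belong to ATF5 was not tested, and they do not measure the mature miRNA. The small nucleolar RNA gene SNORD35B was higher in D11 by 0.59, on 59, 31 and 33 scaled reads against 26, 19 and 15 in TPC1. RCN3, a calcium binding protein of the ER lumen, was lower in TD5 (-0.59) and had close values in D11 (-0.44) and WB1 (-0.56). The count near EMC10 in D11 was 2 without TPC1 replicate 3, where 664 of 15971 tested genes were called. In WB1 it was 6 without TPC1 replicate 2 (920 of 15992 tested genes). Without WB1 replicate 1 it was 5 (802 of 15968) and without WB1 replicate 3 it was 4 (919 of 15940). In TD5 it was 1 without TD5 replicate 1 or 3, or without TPC1 replicate 1 or 3. Over all tested genes these last settings called 341 to 403 in TD5.

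The same was done around EMC1 after its values in D11 had been seen. Of 15 tested genes within 1 Mb, 3 were called in D11 (all lower), 1 in WB1 and 0 in TD5. Among all tested genes 4.84%, 4.99% and 2.60% were called. The median difference of the 15 genes was -0.36 in D11, -0.25 in WB1 and -0.04 in TD5. For all tested genes it was 0.05, 0.06 and 0.00. The calls in D11 were AL035413.1, MRTO4 and NBL1, a secreted antagonist of bone morphogenetic proteins. AL035413.1 overlaps EMC1 on the opposite strand, and its reads may not have been separated from those of EMC1. MRTO4, whose promoter window overlaps that of EMC1, had 3360, 3336 and 3341 scaled reads in TPC1 and 1570, 1632 and 1430 in D11. It had 3084, 2578 and 2817 in WB1 and 2922, 3422 and 2780 in TD5. MRTO4 fell in D11 to 46.1% of TPC1 (-1.11 on the log2 scale, adjusted p = 4.03e-08) and differed by -0.25 in WB1 and -0.14 in TD5.

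On the other side, UBR4, a large ubiquitin ligase gene on the same strand, begins 5.39 kb beyond the end of EMC1 and had 5902, 5546 and 5816 in TPC1 and 4201, 4441 and 3844 in D11. Its difference was -0.47 in D11 (adjusted p = 0.000121) and 0.24 in WB1 (0.0116), under 1.5-fold in both. The next tested genes, PQLC2, AKR7A2, AL137127.1 and IFFO2, differed in D11 by -0.33, -0.26, -0.36 and -0.06 and were not called. NBL1 was lower in D11 (-0.62) and near that in WB1 (-0.52, under 1.5-fold), and KLHDC7A was called lower in WB1 (-0.83). In D11 the difference was thus largest in size in EMC1, AL035413.1 and MRTO4 among the tested genes within 1 Mb.

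**Figure D3:**
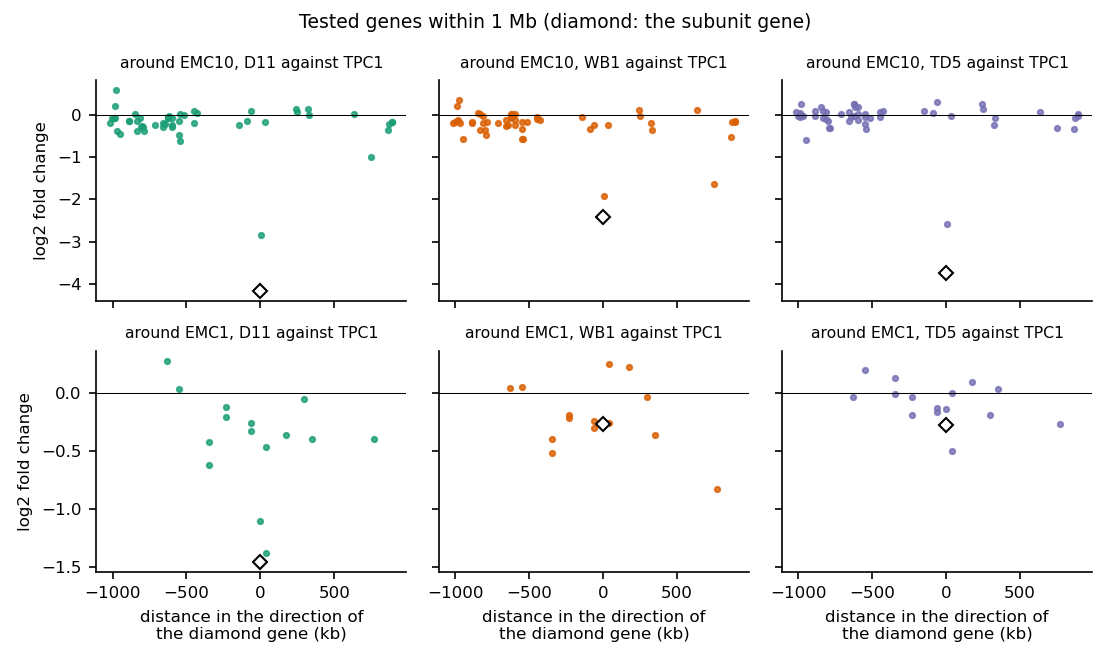
Log2 fold change against TPC1 of each tested gene within 1 Mb of EMC10 (upper row) and EMC1 (lower row), by the distance between start sites in kb along the direction of the subunit gene, for D11, WB1 and TD5. The diamond is the subunit gene, and the point nearest to it in the upper row is AC020909.3 at -2.84, -1.91 and -2.59.

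**Figure D4:**
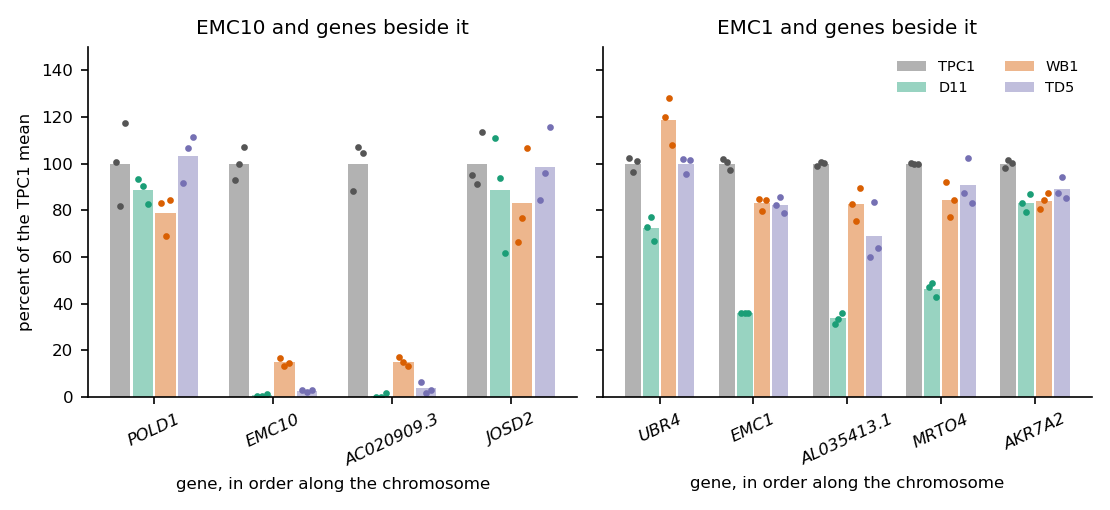
Percent of the TPC1 mean in scaled reads, with bars at the mean and a point per library, for EMC10 and EMC1 and genes beside them. AC020909.3 is low with EMC10 in all clones while POLD1 and JOSD2 overlap with TPC1 or lie near it, and in D11 MRTO4 stands at 46.1% beside EMC1 at 36.0%, with UBR4 at 72.3%.

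Sites for the DICER1 guide were looked for at both genes, since all clones were made with it. Within 10 kb of DICER1 a site with an NGG motif matched the 20-base protospacer with 0 mismatches. Within 10 kb of EMC10 and of EMC1 the best site had 8 mismatches. Whether the DNA of the clones differs at these genes was not tested.

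Genes of other routes into the ER membrane were described from 9 lists with 84 genes, of which 81 were tested. The lists hold the Sec61 translocon, the multipass translocon, the GET/TRC pathway for tail-anchored proteins, the SND route, the signal recognition particle and its receptor, signal peptidase, oligosaccharyltransferase, ER-associated degradation and described substrates of the EMC. Limma called 1 of the 81 genes in D11, 0 in WB1 and 0 in TD5, against 4.84%, 4.99% and 2.60% of all tested genes. Voom gave the same counts for the 81 genes, where it called 1175, 1270 and 545 of the 16027 tested genes. At an adjusted p under 0.05 without the fold limit the counts were 34 of 81 in D11 (33.3% of all tested genes), 26 in WB1 (30.9%) and 6 in TD5 (11.9%). At an unadjusted p under 0.05 they were 46 of 81 in D11 (44.6% of all tested genes), 39 in WB1 (42.7%) and 18 in TD5 (27.1%). The median difference was -0.03, -0.02 and -0.02. The gene called was SRP9, a protein of the signal recognition particle, higher in D11 by 0.63 (adjusted p = 0.0276). Its D11 libraries held 2164, 2173 and 3121 scaled reads against 1716, 1427 and 1585 in TPC1. Without D11 replicate 3 or without TPC1 replicate 2 or 3 it was no call.

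The GET/TRC pathway takes clients that overlap with those of the EMC. Of its 7 genes, 6 had an adjusted p under 0.05 in D11, 5 in WB1 and 0 in TD5, all under 1.5-fold, where 33.3%, 30.9% and 11.9% of all tested genes did. The median was -0.19, -0.17 and -0.03. The cytosolic chaperones and sorting factors were the lower ones: SGTA differed by -0.34 in D11 and -0.40 in WB1, and BAG6 by -0.23 and -0.18. The receptor genes WRB and CAMLG differed in the other direction, by 0.30 and 0.28 in D11 and 0.25 and 0.24 in WB1. The number of the 7 with an adjusted p under 0.05 in D11 and WB1 was 5 and 5 with median-of-ratios scaling, 6 and 7 with voom and 5 and 4 with a replicate block.

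In the remaining lists the medians in D11, WB1 and TD5 were 0.08, 0.02 and -0.05 for the Sec61 translocon (14 genes), -0.14, -0.15 and -0.08 for the multipass translocon (9 genes) and 0.18, 0.18 and 0.17 for signal peptidase (5 genes). They were -0.04, -0.03 and -0.04 for oligosaccharyltransferase (12 genes) and -0.07, -0.02 and -0.01 for ER-associated degradation (22 genes tested). For the signal recognition particle and its receptor (8 genes) they were 0.01, 0.03 and -0.06, and the single SND gene, TMEM208, differed by -0.16, -0.03 and -0.20. Of the substrates, FDFT1 of sterol synthesis, the cholesterol acyltransferase SOAT1 and TMEM97 were tested, and they differed from TPC1 by -0.24 to 0.15. The adrenergic receptor gene ADRB1 had at most 8 scaled reads in TPC1 and D11 and was not tested.

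Genes whose level followed EMC10 most closely over the 12 libraries were ranked by Pearson's r of log2 values among 12243 genes, those averaging 5 or more per 1000000. The points share lines and libraries, and r is a description. EFNB1, an ephrin ligand, came first (r = 0.955), followed by the lipid kinase gene PIP4K2C (0.946), LOXL4, a lysyl oxidase (0.944), CEP295NL (0.941) and the chromatin remodeler gene SRCAP (0.932). EFNB1 had 319 to 405 scaled reads in TPC1, 199 to 219 in D11, 254 to 277 in WB1 and 235 to 236 in TD5. LOXL4 had 209 to 258 in TPC1, 58 to 64 in D11, 92 to 119 in WB1 and 76 to 116 in TD5. AC020909.3, whose mean is under that limit, had r = 0.993. Among the subunits r was 0.73 for EMC3, 0.70 for EMC1, 0.62 for EMC7, 0.42 for EMC6, 0.38 for EMC2, 0.37 for EMC8, -0.01 for EMC9, -0.14 for EMC4 and -0.52 for MMGT1.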

How the data were processed

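The authors made stranded poly(A) libraries (TruSeq Stranded mRNA) from 12 RNA samples, sequenced paired ends, aligned reads to GRCh38 with STAR 2.5.3a and counted them on genes of Ensembl release 90 with HTSeq 0.9.1. The deposited values are a score: counts scaled by the authors to 20000000 aligned reads and rounded up, summing to 20009833 to 20014191 per library. Since they are not counts, values per 1000000 were tested as log2(value + 1) by limma (version 3.58.1, R version 4.3.3) using a mean-variance trend, 1 mean per line over 12 libraries, and Benjamini-Hochberg adjustment over the 16027 of 58302 genes that reached 1 per 1000000 in 3 or more libraries. Groups came from sample titles. Reads per library (12700000 to 21020000) were estimated from the pattern in which whole numbers occur, and intervals rest on them. The match to this pattern was weakest in TPC1 replicate 1 (r = 0.386), where 0 of the whole numbers from 1 to 300 were missing. The limma fit was tested on simulated data. Genes were placed on GENCODE annotation of GRCh38 (15879 of the tested genes). Named genes were the members, genes overlapping them, the 3 nearest tested genes on each side of EMC10, called genes within 1 Mb or in the lists, and the 5 genes most correlated with EMC10. Genes around EMC1, some GET/TRC genes and substrates were named after their values were seen. The members and lists were chosen with earlier results of these data known. D11 and TD5 libraries with the same number deviated together (r = 0.107, 0.172 and 0.348), and no other lines did so throughout. This is a hint of pairing from the data only. The main fit did not use it, and a replicate block was fitted only as an alternative. Alternatives changed the pseudocount, filter, scaling, model, replicate block and libraries. A few overlapping and marker genes are not reported here.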

Additional observations from a re-analysis of the deposited data

Results flagged for a closer look

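The clones differed from each other in EMC1 by the test of the difference itself (limma, adjusted over all tested genes). EMC10 met the same rule, which for it is a description. EMC10 was higher in WB1 than in D11 by 1.76 (log2) and lower in TD5 than in WB1 (-1.35), with 3 of 3 libraries on their side of the other clone in each case. The clone libraries also entered the choice of EMC10, so its test is not independent of that choice. EMC1 was higher than in D11 in WB1 by 1.19 and in TD5 by 1.18, again in 3 of 3 libraries. How many of all tested genes separate a pair of clones in this way was not counted, so the 3 of 3 libraries add no support.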

How the results depend on the processing

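Of 1800 values computed under 20 alternative settings, 12 of which leave out 1 library, 1763 kept their direction and their side of the threshold or moved by less than the spread between replicates, and 0 changed direction with a call. The calls of EMC1 in D11 (-1.52 to -1.41), between WB1 and D11 (1.15 to 1.22) and between TD5 and D11 (1.14 to 1.23) held under all 20. The size of the EMC10 difference from TPC1 in D11, WB1 and TD5 was -6.35, -2.72 and -4.98 with a pseudocount of 0.1, -2.51, -1.78 and -2.38 with a pseudocount of 4, and -7.16, -2.75 and -5.24 with voom on the estimated reads. EMC10 between TD5 and D11 became a call with a pseudocount of 0.1 (1.38) and with voom (1.91), and its adjusted p ran from 0.000664 to 0.167. The p-values of EMC10 are not independent of its choice, which used the same clone libraries. Both clones lie under the filter level, which EMC10 reached only in TPC1 and WB1. The count of called genes within 1 Mb of EMC10 in D11 was 2 with a pseudocount of 4 and 2 to 4 when a library was left out. Over all tested genes the calls in D11 were 775 in the main fit and 295 with a pseudocount of 4. They were 664 to 921 when a library was left out. Near EMC10 in WB1 the count was 5 with median-of-ratios scaling, 6 with a pseudocount of 0.1 and 6 with voom. It was 2 to 6 when a library was left out. Over all tested genes the calls in WB1 were 799 in the main fit and 747 with median-of-ratios scaling. They were 1233 with a pseudocount of 0.1, 1270 with voom and 672 to 920 when a library was left out. Near EMC10 in TD5 the count was 1 with the filter at 5 per 1000000, with no filter and with a pseudocount of 4. It was 1 to 2 when a library was left out. Over all tested genes the calls in TD5 were 417 in the main fit and 272 of 12612 with that filter. They were 407 of 34101 with no filter, 180 with a pseudocount of 4 and 341 to 589 when a library was left out. AC020909.3, which passed the filter mainly through TPC1, is in each of these counts near EMC10. The count of insertion and quality control genes in D11 was 0 with median-of-ratios scaling and with no filter, and 0 to 1 when a library was left out. With median-of-ratios scaling 703 of 16027 tested genes were called in D11, and with no filter 799 of 34101. With a replicate block, which bears on the pairing of TD5 and D11, EMC10 differed between these clones by 0.41 (adjusted p = 0.0250), and the block changed no call. The cause of these changes was not tested. Depth limits EMC10 and AC020909.3 in D11 and TD5, which rest on 0 to 9 reads per library.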
